A study of Homo sapiens with 6 samples.

Results

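Genes with almost no reads in untreated 22Rv1-ABHD5 cells and a clear signal after doxycycline (Dox) were chosen by their raw read counts with 2 limits: at most 3 reads in each library without Dox and at least 10 reads in each library with Dox. Of 27470 genes in the table, 21 met both limits. ATP1B2, CTNNA2 and GPD1 were left out by name, which left 18 switched-on genes. All 18 code for proteins. Because the limits chose the genes by the counts of these same 6 libraries, their rise is a description and carries no test here.

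The cells are 22Rv1, a human castration-resistant prostate cancer line, infected with a lentiviral vector that places ABHD5 behind a Dox-inducible promoter and selected with G418. ABHD5 is the coactivator of ATGL, the lipase that starts the breakdown of stored triglyceride. The 3 libraries labelled control (here without Dox) and the 3 labelled OE (here with Dox) come from the same engineered line, harvested at 48 h. The labels give neither a Dox dose nor whether the replicates were separate cultures, so the p-values measure the spread between these samples, which may be technical. Since Dox was not given to cells lacking the vector in the libraries used here, effects of Dox and of ABHD5 cannot be told apart. Libraries were made from the 3ʹ end of poly(A) RNA and held 3394672 to 7271771 reads on genes. Levels are given as CPM, read counts scaled to library size with TMM factors; reads come from the 3ʹ end, so CPM of different genes were set side by side without dividing by length. On this scale 3 reads without Dox are 0.522 to 0.927 CPM and 10 reads with Dox are 1.31 to 2.77 CPM.

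ABHD5 itself was at 63.2, 57.8 and 62.6 CPM without Dox and 125.4, 130.3 and 91.3 CPM with Dox. Every library with Dox was above every library without it, and the log2 fold change was 0.91 ± 0.15 (SE; edgeR's quasi-likelihood test, adjusted p = 1.63e-04). The line was checked against 12 markers of prostate luminal cells, all of which were expressed; their summed level was 2037 to 2156 CPM without Dox and 1354 to 1542 CPM with Dox. Of these, 6 fell and 0 rose, where 13.7% of all genes tested fell and 11.8% rose. The fall was 0.57 for KRT18 and 0.52 for EPCAM on the log2 scale. The 36 markers of blood and immune cells summed to 18.3 to 25.3 CPM over all 6 libraries, with 31 of them at 3 reads or fewer in each library without Dox; the pan-leukocyte gene PTPRC had at most 1 read in any library and the T cell gene CD3D none.

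A gene that is silent in one tissue and active in another is usually held off by the lack of its transcription factors, by closed chromatin, by Polycomb marks or by DNA methylation at its promoter. Promoters dense in CpG, the dinucleotide that DNA methylation acts on, belong both to genes used in every cell and to many developmental and neural genes that are kept off elsewhere. The 18 genes were grouped by their known roles, and their levels in normal tissues, the prostate among them, were not examined here. By textbook knowledge, 7 are best known from the nervous system (among them NGFR, NPY, DSCAM, SNPH, OPCML and NLGN3), 2 are developmental transcription factors (HOXA11 and EBF3), 3 are Golgi enzymes that modify secreted proteins and sugars (FAM20C, GALNT16 and CHST1), and TMPRSS11E, ANXA9, IL23R, RIBC1 and ARHGAP28 have other roles. TMEM196 was not assigned to a class. This grouping was made after the genes were known.

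Without Dox, 31 of the 54 values of these genes were 0, and 7 genes had no read in any of the 3 libraries. All 18 genes together had 10, 13 and 14 reads without Dox and 453, 435 and 973 reads with Dox. Their summed level was 2.43 to 4.02 CPM without Dox and 98.1, 120.6 and 127.3 CPM in replicates 1, 2 and 3 with Dox. The levels reached by these 18 genes remained low. Their mean CPM with Dox ran from 2.57 for ARHGAP28 to 18.5 for NGFR, with a median of 4.47. The median was 32.0 over the 12233 genes that passed edgeR's filter, and 64.8% of those were above NGFR. This ceiling depends on the genes left out by name, which all stood above NGFR. Their mean CPM with Dox was 1115 for ATP1B2, 24.8 for CTNNA2 and 20.8 for GPD1. In bulk RNA, a few cells with many copies and many cells with few copies cannot be told apart, nor fewer cells of a type from less RNA per cell.

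**Figure D1:**
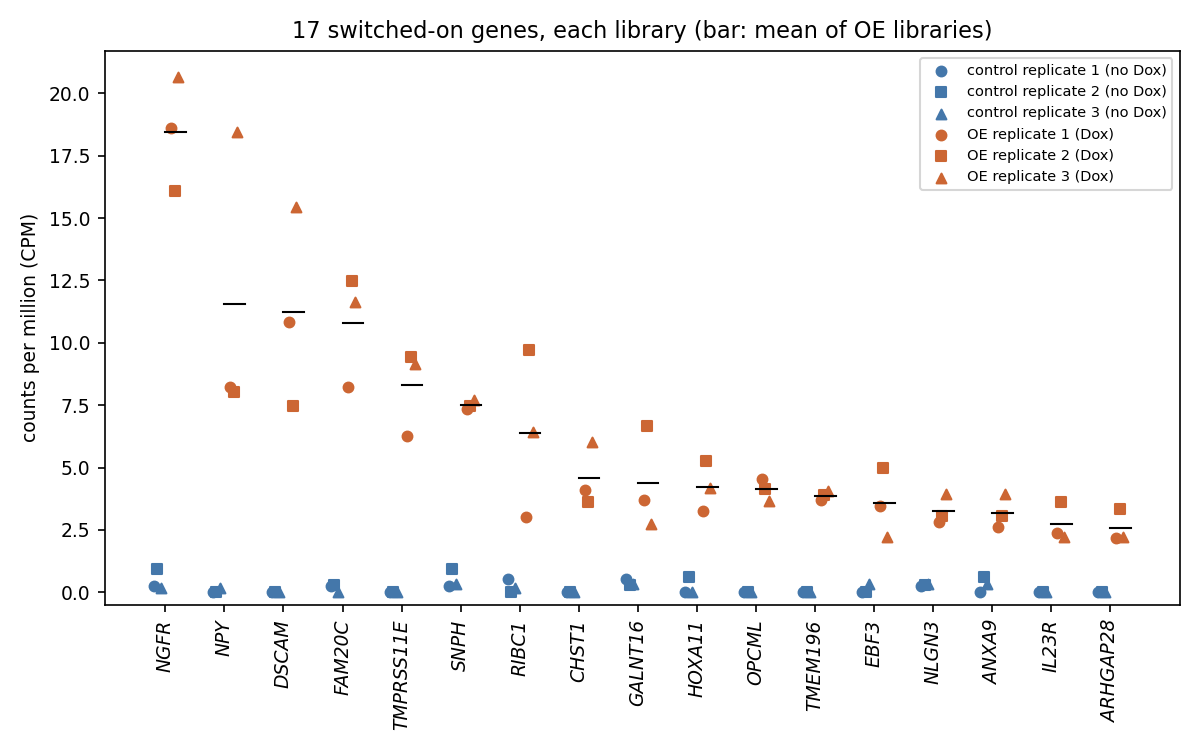
CPM of 17 of the switched-on genes (linear axis) in the 3 libraries without Dox (blue) and the 3 with Dox (orange), ordered by the mean with Dox, which the black bars mark. NGFR stands highest at a mean of 18.5 CPM, 4 genes have means over 10 CPM, and the 3 libraries with Dox spread widely for NPY and RIBC1.

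The genes of the nervous system held the largest part of this signal. The 7 genes summed to 1.22 to 2.16 CPM without Dox and to 55.2, 54.6 and 72.5 CPM with Dox. NGFR, which encodes the p75 receptor for neurotrophins, had 1, 3 and 1 reads without Dox and 86, 58 and 158 with Dox, a mean of 18.5 ± 2.30 CPM (SD, n = 3). The 3 libraries with Dox lay close together, at 18.6, 16.1 and 20.7 CPM. The ratio of summed counts was 48.8 (95% interval 20.7 to 151.5, counting error only).

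NPY, a peptide transmitter that neurons secrete, had 0, 0 and 1 reads without Dox and 38, 29 and 141 with Dox. Replicate 3 stood apart, at 18.5 CPM against 8.23 and 8.04 CPM in the others, and the mean was 11.6 ± 5.96 CPM (SD, n = 3). With a single read without Dox, the ratio of 168.2 has a wide counting interval, 29.9 to 6675. DSCAM, an adhesion molecule by which growing neurites recognize their own branches, had no read without Dox and 50, 27 and 118 with Dox, which is at least 52.6-fold higher. This bound sets 3 reads over the whole group without Dox as the limit of detection. The DSCAM levels with Dox, 10.8, 7.49 and 15.4 CPM, also put replicate 3 highest and replicate 2 lowest.

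SNPH, which encodes syntaphilin, the protein that anchors mitochondria in axons, had 1, 3 and 2 reads without Dox and 34, 27 and 59 with Dox. It was the steadiest of all, at 7.37, 7.49 and 7.72 CPM with Dox. OPCML, a lipid-anchored adhesion molecule of the IgLON family, had no read without Dox and 21, 15 and 28 with Dox, at least 17.3-fold higher and again even across libraries (4.55, 4.16 and 3.66 CPM). NLGN3, a postsynaptic adhesion molecule that binds neurexins, had 1, 1 and 2 reads without Dox and 13, 11 and 30 with Dox, a ratio of 10.9 (95% interval 4.03 to 41.5).

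The Golgi enzymes came next. FAM20C, the kinase that phosphorylates secreted proteins such as casein, had 1, 1 and 0 reads without Dox and 38, 45 and 89 with Dox, a mean of 10.8 ± 2.25 CPM (SD, n = 3). CHST1, which adds sulfate to keratan, had no read without Dox and 19, 13 and 46 with Dox, at least 21.0-fold higher. GALNT16, one of the enzymes that begin mucin-type O-glycosylation, had 2, 1 and 2 reads without Dox and 17, 24 and 21 with Dox; its ratio of 10.03 (95% interval 4.07 to 32.0) was the smallest of the 11 genes with any read without Dox.

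TMPRSS11E, a membrane-bound serine protease known from skin and other squamous epithelia, had no read without Dox and 29, 34 and 70 with Dox, at least 35.9-fold higher. Its levels with Dox were 6.28, 9.43 and 9.16 CPM. HOXA11, a homeobox factor that patterns the limb, kidney and reproductive tract, had 0, 2 and 0 reads without Dox and 15, 19 and 32 with Dox. EBF3, a helix-loop-helix factor of neuronal and muscle development, had 0, 0 and 2 reads without Dox and 16, 18 and 17 with Dox, so that its CPM was lowest in the deepest library (2.22 CPM in replicate 3).

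Of the others, RIBC1, a protein of the microtubule doublets in cilia and flagella, had 2, 0 and 1 reads without Dox and 14, 35 and 49 with Dox. Its levels with Dox, 3.03, 9.70 and 6.41 CPM, spread 3.20-fold between the highest and the lowest library. TMEM196 had no read without Dox and 17, 14 and 31 with Dox, and ranged only from 3.68 to 4.06 CPM. ANXA9, an annexin with unusual calcium binding, had 0, 2 and 2 reads without Dox and 12, 11 and 30 with Dox. IL23R, the receptor chain specific to interleukin 23, had no read without Dox and 11, 13 and 17 with Dox, and ARHGAP28, which turns off RhoA, none and 10, 12 and 17. The last 2, at least 11.1-fold and 10.5-fold higher, had the lowest means with Dox of all.

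Against the spread of pure counting, the 3 libraries with Dox differed for some of these genes and not for others. The chi-square per degree of freedom of the counts with Dox was 16.0 for NPY, 7.36 for RIBC1, 6.87 for DSCAM and 4.82 for GALNT16, and under 1 for 8 genes, the lowest being SNPH and TMEM196. Replicate 2 was the highest for 9 genes, replicate 3 for 8 and replicate 1 for 1. The rule cut these same counts at 10 reads, which is 2.77 CPM in replicate 2 and 1.31 CPM in replicate 3. Weak genes could thus enter only with a higher CPM in replicate 2. The spread and the order of libraries are therefore descriptions of chosen genes, and nothing further is read from them.

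Of the 18 genes, 15 passed edgeR's filter and all 15 were higher at an adjusted p under 0.05 (edgeR's quasi-likelihood test), where 11.8% of all genes tested were; the rule used the same contrast, so nothing is read from this count. EBF3, IL23R and ARHGAP28 did not pass the filter. Just inside the limit with Dox were ARHGAP28, with a lowest count of 10, and ANXA9, IL23R and NLGN3, with 11. At the limit without Dox, with 3 reads in 1 library, were NGFR and SNPH. Just outside were TMEM40, with no read without Dox and 17, 9 and 77 with Dox, RAD21L1, with none and 16, 8 and 30, and APH1B, with 3 in each library without Dox and 17, 15 and 8 with Dox. On the other limit, PEAK1 had 4, 2 and 2 reads without Dox and 32, 27 and 40 with Dox, and TMEM44 had 4, 3 and 3 against 22, 21 and 58. A further band of 58 genes met the limit without Dox and had a lowest count of 5 to 9 with Dox.

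Silent genes that came on were rare, and the reverse was rarer. Of 12795 genes at 3 reads or fewer in each library without Dox, 8114 had no read in any library, and 0.164% met the limit with Dox. The mirrored rule, at least 10 reads in each library without Dox and at most 3 in each with Dox, was met by 0 of 12113 genes. The libraries with Dox were deeper (15191677 reads against 13371115). With both limits set on counts scaled to equal library totals, without TMM factors, 21 genes met the rule and 1 met its mirror. With a limit of 7 reads in place of 3, the numbers were 74 and 13.

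Markers of the tissues these genes are known from were then examined. A set of 19 lists of tissue markers and of drug and steroid enzymes, 457 genes in all, held none of the 18. Of the 101 list genes that were tested, 15 rose (14.9%, against 11.8% of all genes) and 19 fell (18.8%, against 13.7%), at an adjusted p under 0.05. A further 314 list genes were within the limit of 3 reads in each library without Dox, and only SI, TNNC1, SCGB2A2 and CGA among them had a mean over 1 CPM with Dox. TNNC1, cardiac troponin C, had 0, 0 and 1 reads without Dox and 7, 6 and 10 with Dox.

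Of the 45 neuron and synapse genes, 22 were tested, 6 rose and 5 fell. Over all genes tested, 11.8% rose and 13.7% fell, which is also the background for the lists below. Nothing particular to a list is read from counts this small. The median log2 fold change of the 22 was 0.26 against 0.02 over all genes tested. SYN1, which coats synaptic vesicles, rose from 2.97 ± 0.824 to 9.97 ± 1.77 CPM (SD, n = 3 each), and TUBB3, the neuronal tubulin, from 45.02 ± 2.78 to 117.0 ± 12.3 CPM (SD, n = 3 each). CNTNAP2, an axonal adhesion protein, fell by 1.89 on the log2 scale. The summed level of this list was 863.1 to 895.2 CPM without Dox and 766.0 to 815.6 CPM with Dox, and 0 of its 18 genes within the control limit had a mean over 1 CPM with Dox. Among 20 neuroendocrine genes, 7 were tested, 1 rose (CHGB, log2 fold change 0.92) and 0 fell. Of the 33 squamous epithelium genes, 30 were within the control limit and 1 of the 3 tested rose. That gene was FLG, filaggrin, with 2, 1 and 5 reads without Dox and 72, 43 and 78 with Dox, which missed the rule by 1 library; CNN1, smooth muscle calponin, had 3, 1 and 5 reads against 38, 26 and 76. Both were singled out after their values were seen.

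Ligands, receptors and partners of the switched-on genes were listed by hand once the genes were known. Of 44 such genes, 20 were tested, of which 8 rose (40%, against 11.8% of all genes tested) and 2 fell (10%, against 13.7%). The list was drawn up by hand and nothing particular to it is read from these shares. For NGFR, BDNF, a ligand, rose from 2.13 to 8.31 mean CPM (log2 fold change 2.01; edgeR's quasi-likelihood test, adjusted p = 2.79e-04), while the co-receptor SORT1 was at 83.6 and 75.2 CPM and did not pass. NTRK2 and NTRK3, kinase receptors that work with NGFR, had at most 2 reads in any library. For NPY, the enzymes that trim and amidate peptide precursors rose, CPE from 149.3 to 285.6 and PAM from 25.8 to 60.8 mean CPM, and DPP4, which cleaves the mature peptide, fell from 26.3 to 7.48 mean CPM. PCSK1 and PCSK2, the convertases that make the first cut in neurons, had at most 9 reads in any library, and the receptors NPY1R, NPY2R, NPY4R and NPY5R at most 11.

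IL12RB1, the chain with which IL23R forms its receptor, had 1 read in all 6 libraries together; JAK2 and TYK2, its kinases, did not pass the test, and STAT3, the factor downstream, rose by 1.05 on the log2 scale. For NLGN3, the scaffold DLG4 rose by 0.97 on the log2 scale (adjusted p = 0.0236 by edgeR's quasi-likelihood test, and 0.0914, 0.121 and 0.0695 without control replicate 1, control replicate 3 and OE replicate 2), and the partner across the synapse NRXN2 had a log2 fold change of -0.70 that did not pass (adjusted p = 0.170 by the same test). NEGR1, an IgLON relative of OPCML, rose by 1.07 on the log2 scale, and NTM, another, had a log2 fold change of -0.75 that did not pass. UNC5C, a netrin receptor listed with DSCAM, fell by 1.03 on the log2 scale.

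Relatives by gene symbol moved in both directions. Of 101 such genes in the table, 57 were tested, 12 rose (21.1%, against 11.8% of all genes tested) and 9 fell (15.8%, against 13.7%). GALNT16 came on while GALNT10 rose from 17.2 to 58.1 mean CPM and GALNT1, GALNT7 and GALNT18 fell, the last from 27.3 to 7.41. CHST2, a sulfotransferase related to CHST1, fell from 139.1 to 45.9 mean CPM, and CHST15, another, rose from 14.3 to 23.7 mean CPM. RIBC2, the close relative of RIBC1, fell by 0.87 on the log2 scale. ANXA2, ANXA3 and ANXA6 rose beside ANXA9, and of 25 ARHGAP genes tested 6 rose (24%) and 4 fell (16%). Leaving out 1 library ended the calls of GALNT7 (without control replicate 1, adjusted p = 0.0527), CHST15 (control replicate 3, 0.0555), ANXA2 (control replicate 3, 0.0526) and ANXA3 (control replicate 1, 0.0579; OE replicate 3, 0.0557), all by edgeR's quasi-likelihood test. The 4 other TMPRSS11 genes in the table, the relatives of TMPRSS11E, had at most 7 reads in any library, and DSCAML1, the relative of DSCAM, at most 1.

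Promoter sequence was the first feature examined that the rule did not use. RefSeq promoters (250 bases before to 50 after a start site, GRCh38.p14) were matched for 14 of the 18 genes. Those of EBF3 and NPY are printed as CpG-dense examples and those of TMPRSS11E and ARHGAP28 as CpG-poor ones. That of HOXA11, with 13 CG, a GC content of 51.3% and 0.67 of the expected CpG, lies just inside the CpG-rich class described below. Capitals mark each CG and, in the last 2, also the letters TATAAA on either strand. EBF3 lies on the minus strand at chr10:129964225-129964524, NPY on the plus strand at chr7:24283940-24284239, HOXA11 on the minus strand at chr7:27185183-27185482, TMPRSS11E on the plus strand at chr4:68447213-68447512 and ARHGAP28 on the plus strand at chr18:6834235-6834534. The RefSeq starts used for EBF3 and ARHGAP28 lie inside the genes as GENCODE draws them, and which start was active cannot be read from 3ʹ libraries.
EBF3: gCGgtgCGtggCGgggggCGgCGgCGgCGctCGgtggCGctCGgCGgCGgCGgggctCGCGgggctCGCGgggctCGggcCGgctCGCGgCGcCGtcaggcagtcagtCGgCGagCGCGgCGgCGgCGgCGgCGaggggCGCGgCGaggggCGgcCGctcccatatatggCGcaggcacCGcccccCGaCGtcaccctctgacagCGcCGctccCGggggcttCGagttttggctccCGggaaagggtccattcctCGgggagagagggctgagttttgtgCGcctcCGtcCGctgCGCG
NPY: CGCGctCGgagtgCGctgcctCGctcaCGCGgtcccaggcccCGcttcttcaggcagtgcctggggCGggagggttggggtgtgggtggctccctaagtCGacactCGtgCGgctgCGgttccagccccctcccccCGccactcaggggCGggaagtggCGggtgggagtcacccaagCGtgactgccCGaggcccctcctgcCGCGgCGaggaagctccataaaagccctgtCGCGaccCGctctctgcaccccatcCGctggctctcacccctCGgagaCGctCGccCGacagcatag
HOXA11: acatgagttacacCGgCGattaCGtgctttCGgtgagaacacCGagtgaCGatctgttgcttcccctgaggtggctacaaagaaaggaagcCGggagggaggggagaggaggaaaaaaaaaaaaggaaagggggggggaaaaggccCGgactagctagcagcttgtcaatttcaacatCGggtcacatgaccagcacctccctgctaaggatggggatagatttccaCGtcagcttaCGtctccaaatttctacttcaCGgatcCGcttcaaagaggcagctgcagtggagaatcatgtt
TMPRSS11E: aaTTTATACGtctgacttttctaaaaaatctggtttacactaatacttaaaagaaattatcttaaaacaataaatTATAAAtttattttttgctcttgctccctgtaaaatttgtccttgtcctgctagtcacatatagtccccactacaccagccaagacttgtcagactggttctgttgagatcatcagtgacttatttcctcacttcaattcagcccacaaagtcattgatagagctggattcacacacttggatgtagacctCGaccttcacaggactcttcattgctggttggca
ARHGAP28: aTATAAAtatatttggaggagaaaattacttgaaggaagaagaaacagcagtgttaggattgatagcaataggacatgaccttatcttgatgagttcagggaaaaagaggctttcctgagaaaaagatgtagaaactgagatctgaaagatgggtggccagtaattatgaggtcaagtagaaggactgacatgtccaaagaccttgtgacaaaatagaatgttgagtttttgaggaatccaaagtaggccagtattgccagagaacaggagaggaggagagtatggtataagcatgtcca

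The promoter of EBF3 held 52 CG, with a GC content of 78.7%, and that of ARHGAP28 held 0, with 39%. Of the 14 promoters, 9 had a GC content of at least 50% and a CpG count of at least 0.6 of that expected from their C and G, or 64.3%. The share was 29.9% of 4425 near-silent protein-coding genes that did not come on and 82.5% of 9014 tested genes. The median observed-over-expected CpG was 0.69 for the switched-on genes, 0.33 for the near-silent genes and 0.85 for the tested genes. The 5 promoters outside that class were those of OPCML, TMEM196, TMPRSS11E, ANXA9 and ARHGAP28, and the first 2 fell just short, at 0.53 and 0.55. With 14 promoters this is a description of the members, with no test.

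**Figure D2:**
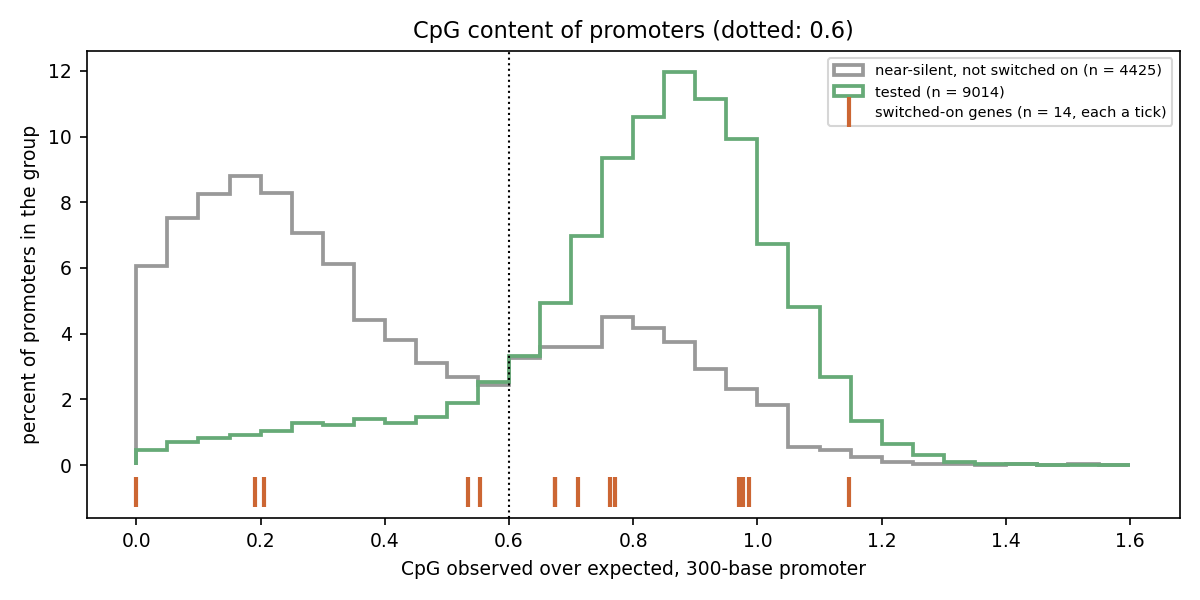
Observed-over-expected CpG in 300-base promoters (horizontal axis) as the percent of promoters in each group (vertical axis), for near-silent genes that did not come on (grey) and tested genes (green), with the 14 switched-on genes as orange ticks. Near-silent genes peak at low CpG and tested genes at high CpG, and 9 of the 14 ticks lie past the dotted line at 0.6.

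Short motifs were searched on both strands of the same windows. The letters TATAAA were found in 2 of the 14 (TMPRSS11E and ARHGAP28) and in 12.0% of all 27305 promoters. They began 175 and 249 bases before the start on the plus strand, outside the usual place of a TATA box near the start. The GC box GGGCGG was in 6 of 14 (44.5% of all promoters), CCAAT in 4 of 14 (35.7%) and the E-box CACGTG in 1, OPCML (7.41%). The cyclic AMP response element TGACGTCA (1.97% of all), the AP-1 motif TGANTCA (7.72%) and both parts of the RE1 element that silences neuronal genes, TTCAGCACC and GGACAGCG (0.396% and 1.70%), were in 0 of these 14 windows, which says nothing of sites elsewhere.

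Gene span was the second feature. DSCAM covers 836.2 kb and OPCML 1118 kb, and they are among 3 of the 18 genes (16.7%) that span over 500 kb, against 1.77% of 5980 near-silent and 1.45% of 10932 tested protein-coding genes. The median span was 52.2 kb for the switched-on genes, 15.7 kb for near-silent genes and 34.9 kb for tested genes, and HOXA11, at 4.08 kb, was the shortest of the 18. The libraries were made from the 3ʹ end, and counts were not divided by length. Whether span bears on the counts was not tested.

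**Figure D3:**
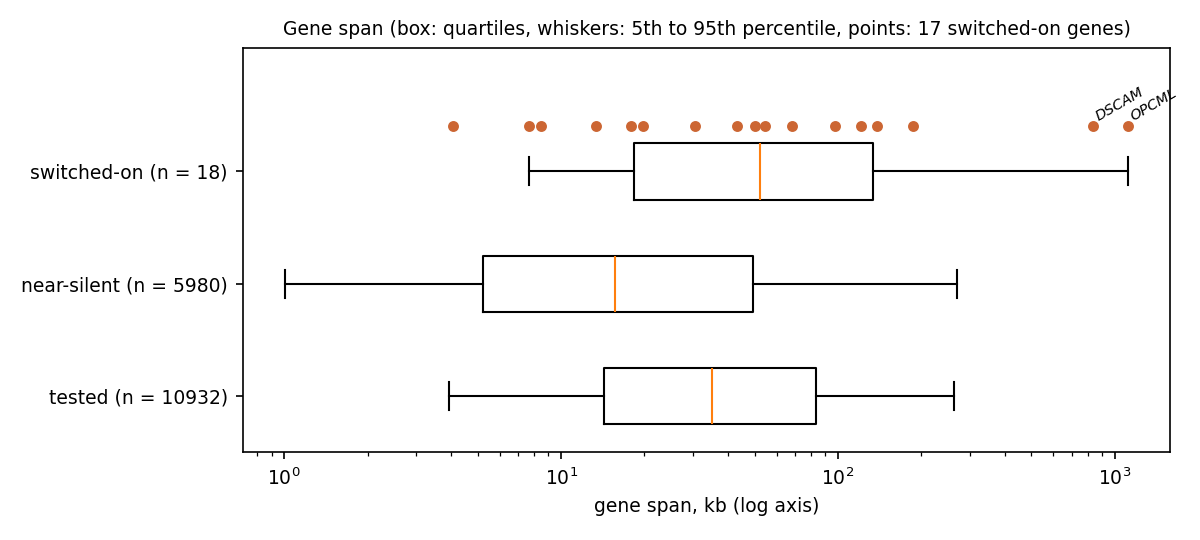
Gene span in kb (log axis) of tested genes, near-silent genes that did not come on and the 18 switched-on genes, with boxes at the quartiles and whiskers at the 5th and 95th percentiles and points for 17 of the 18. DSCAM and OPCML sit far to the right of the others, past 500 kb.

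By position, the 18 genes did not form a tight cluster. They lie on 11 chromosomes, and 0 pairs lie within 1 Mb of each other. Chromosome 7 held 4 of the 18 (22.2%), against 4.11% of near-silent and 4.76% of tested protein-coding genes. All 4 are on its short arm: FAM20C at 192571 to 260772, TMEM196 at 19719315 to 19773617, NPY at 24284188 to 24291862 and HOXA11 at 27181157 to 27185232 (hg38). The closest pair of all, NPY and HOXA11, are 2.89 Mb apart, and NPY and TMEM196 4.51 Mb. In the 7.47 Mb from TMEM196 to HOXA11, a stretch chosen after these positions were seen, 26 other genes were tested, of which 3 rose (11.5%) and 4 fell (15.4%), near the 11.8% and 13.7% of all genes. Among the risers were ITGB8, an integrin subunit with a log2 fold change of 2.33, and HOTAIRM1. Chromosomes 1, 4, 11 and X held 2 of the 18 each, with gaps of 17.7 to 86.7 Mb. On the other chromosomes, nervous system genes are NGFR chr17:49495293-49515008, DSCAM chr21:40010999-40847158, SNPH chr20:1266280-1309328, OPCML chr11:132414977-133532501 and NLGN3 chrX:71144821-71175255. Others are CHST1 chr11:45647689-45665622, GALNT16 chr14:69259277-69357033, TMPRSS11E chr4:68447463-68497604, EBF3 chr10:129835233-129973053, RIBC1 chrX:53422690-53431120, ANXA9 chr1:150982249-150995634, IL23R chr1:67138907-67259979 and ARHGAP28 chr18:6729716-6915716 (GENCODE 44 spans).

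Neighbours could be tested, since the rule did not choose them. Within 100 kb of the 18 genes, 33 other genes were tested, beside 10 of the 18; the other 8 had no tested neighbour. Of the 33, 5 rose and 3 fell, 24.2% in all against 25.6% of all genes tested, a share near that background. The rises were 15.2% and the falls 9.09% of the 33, and within 500 kb 19.3% and 11.4% of 88 genes, against 11.8% and 13.7% of all genes tested. Their median log2 fold change was 0.07.

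Single neighbours moved far. SLC35D1, a nucleotide sugar transporter 84759 bases from IL23R (chromosome 1, 66999350 to 67054148), was at 25.5, 25.03 and 28.9 CPM without Dox and 88.6, 89.8 and 121.3 CPM with Dox. The groups were far apart, and the log2 fold change was 1.91 ± 0.16 (SE; edgeR's quasi-likelihood test, adjusted p = 6.74e-08). GJB1, the gap junction gene for connexin 32, 37556 bases from NLGN3 (chromosome X, 71212811 to 71225516), went the other way, from 9.11, 12.4 and 12.0 to 0.650, 1.94 and 0.131 CPM. Its log2 fold change was -3.90 ± 0.49 (SE; same test, adjusted p = 9.83e-06), and -4.98 to -3.16 with each library left out in turn. FOXO4, 41289 bases away on the other side of NLGN3, rose by 0.52 on the log2 scale, a call that was lost under 7 of 11 alternatives (adjusted p up to 0.114), among them leaving out any single library but OE replicate 2.

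SMC1A, a cohesin subunit whose start overlaps that of RIBC1 on the opposite strand, fell by 0.66 on the log2 scale while RIBC1 came on. HSD17B10 ends 138 bases from the end of RIBC1 on the opposite strand, and its log2 fold change was 0.08 and did not pass. The use of strand in counting is not stated, so reads of RIBC1 and of these neighbours cannot be fully separated. ERH, 23095 bases from GALNT16, fell by 0.56 on the log2 scale.

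Around SNPH on chromosome 20, RAD21L1 and TMEM74B were also higher in every library with Dox than in any without. RAD21L1, a cohesin subunit of germ cells whose annotated span overlaps SNPH on the same strand (1226044 to 1296421), had no read without Dox and 16, 8 and 30 with Dox, missing the rule by 2 reads. TMEM74B, 80865 bases away, was at 5.99, 5.87 and 3.65 CPM without Dox and 8.23, 12.2 and 13.1 CPM with Dox. The log2 fold change was 1.16 ± 0.29 (SE; edgeR's quasi-likelihood test, adjusted p = 0.00663, with a range over the alternatives of 0.00129 to 0.0505); the call was lost without control replicate 3. PSMF1 and FKBP1A, further genes of this region, had log2 fold changes of 0.06 and 0.00 that did not pass. Reads at overlapping genes on the same strand cannot be assigned with certainty, and 1 source for SNPH and RAD21L1 was not tested.

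**Figure D4:**
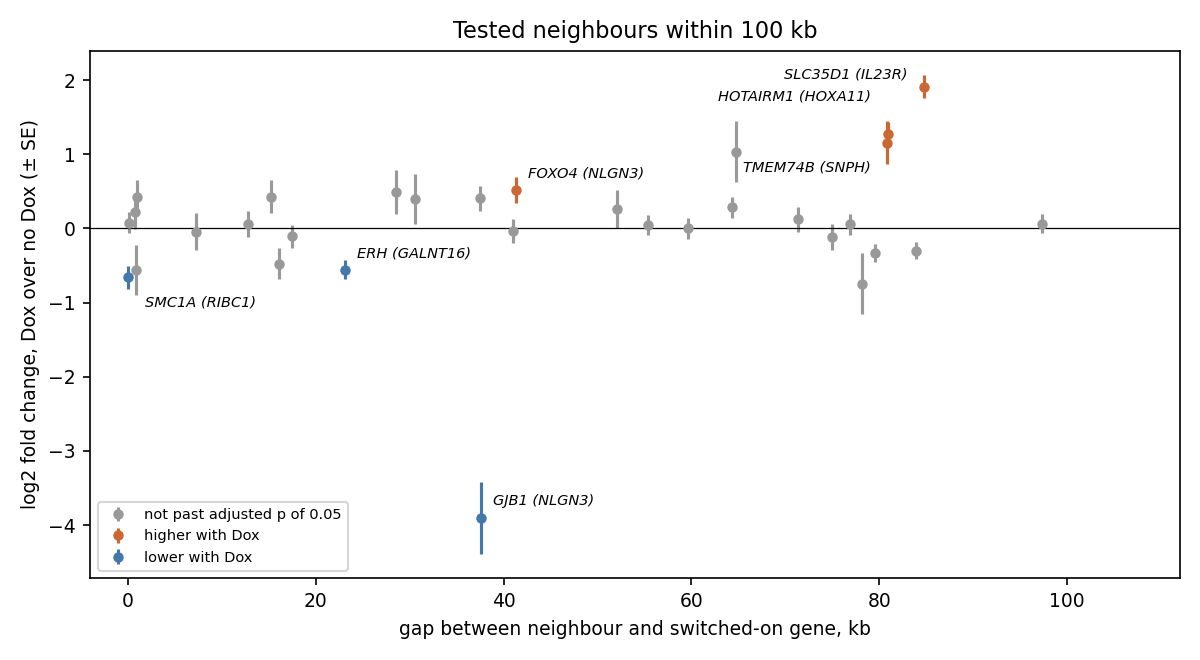
Log2 fold change with its standard error (vertical axis) of 32 tested neighbours against their gap to the switched-on gene in kb (horizontal axis), with the switched-on gene in brackets for those past an adjusted p of 0.05. Most neighbours lie near 0; SLC35D1 is the highest at 1.91 and GJB1 the lowest at -3.90.

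The HOXA cluster gave the finest view of a locus, since 10 of its genes can be shown side by side. HOXA genes are laid out in the order in which they act along the body axis, with HOXA13 at one end. Without Dox, HOXA5 was the strongest, at 20.8, 21.0 and 21.4 CPM, HOXA3, HOXA6 and HOXA10 were between 4.02 and 8.33 CPM, and HOXA7 and HOXA9 had at most 2 reads. The counts were thus already uneven, with genes of few reads between active ones. By annotation, HOXA9 overlaps HOXA10 on the same strand, and HOXA7 overlaps an antisense gene. Reads in such overlaps may be left uncounted, so low counts of HOXA7 and HOXA9 need not mean silence. HOXA5, HOXA6 and HOXA10 also overlap other genes by annotation and had reads in every library. Whether overlap lowered any of these counts was not tested.

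With Dox, HOXA11 came on at 3.25, 5.27 and 4.19 CPM while HOXA10, whose start lies 896 bases beyond the end of HOXA11, was at 6.06 ± 1.99 CPM without Dox and 4.20 ± 0.867 CPM with Dox (SD, n = 3 each). Its log2 fold change of -0.56 did not pass. HOXA7 and HOXA9 had at most 1 read in any library with Dox. HOXA13, on the far side of HOXA11, had 1, 3 and 1 reads without Dox and 5, 11 and 4 with Dox, too few to be tested. HOXA11-AS, the antisense transcript that overlaps the start of HOXA11, had no read without Dox and 2, 1 and 8 with Dox. At the other end of the cluster, HOTAIRM1, a long noncoding RNA, rose by 1.27 ± 0.16 on the log2 scale (SE; edgeR's quasi-likelihood test, adjusted p = 9.87e-06). HOXA3, HOXA5 and HOXA6 had log2 fold changes of 0.50, 0.40 and 0.40 that did not pass.

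**Figure D5:**
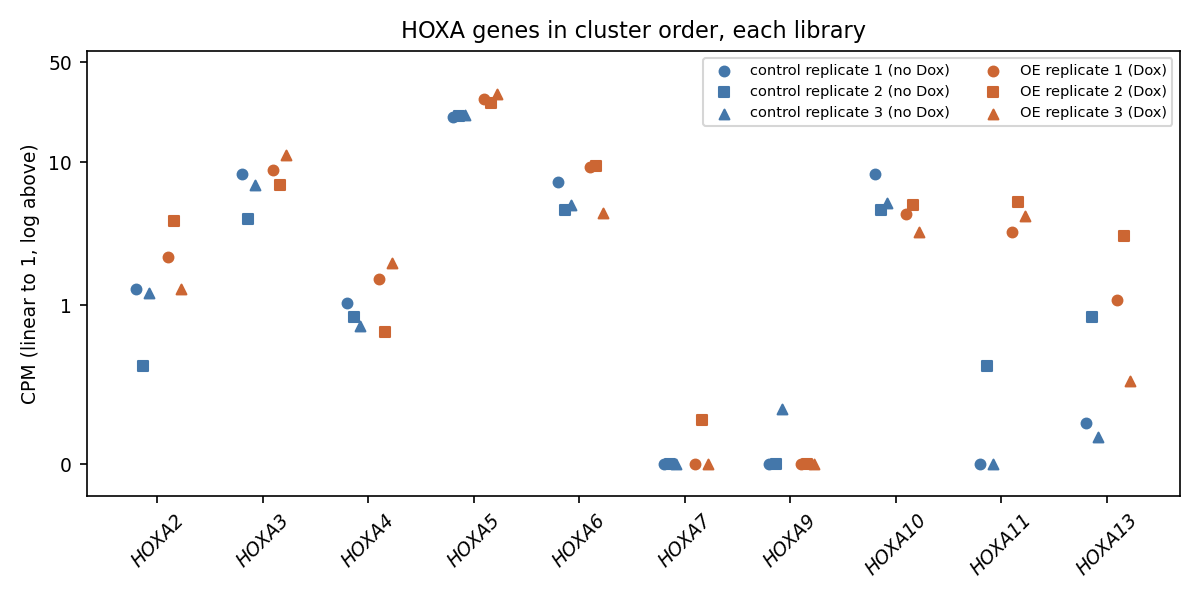
CPM of 10 HOXA genes in cluster order (vertical axis linear to 1 and logarithmic above) in the 3 libraries without Dox (blue) and the 3 with Dox (orange). HOXA11 goes from at most 2 reads to 3.25 to 5.27 CPM, HOXA10 beside it overlaps between conditions, and HOXA7 and HOXA9 stay at or near 0.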

How the data were processed

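RNA of 3 libraries without Dox and 3 with Dox was measured by 3ʹ mRNA sequencing; the kit is REV in the study's methods but FWD in the labels. The authors aligned 100 bp reads with STAR (hg38) and deposited a table of raw counts, 1 row per gene symbol; HTSeq is named in the submitters' processing notes, and the annotation and strand setting are not given in the sources used here. The authors also deposited a normalized signal per library, scaled to nearly equal totals, which served as an alternative. Rows that name no gene were left out of totals; 32.5% to 39.5% of the reads listed lay on no gene and 3.05% to 3.37% were ambiguous.

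The members, the marker lists and the comparisons were chosen with earlier results of these data known. Counts were tested with edgeR 4.0.16 (TMM, filterByExpr, robust quasi-likelihood test; calls at 0.05 after Benjamini-Hochberg adjustment over 12233 genes; 3131 were called, 1449 higher and 1682 lower, and 19% of genes had every library with Dox above every library without) in R 4.3.3; DESeq2 1.42.0 was an alternative. The test was checked on simulated counts. Intervals are exact (Clopper-Pearson, on the share of the summed counts that came from libraries with Dox) and, like the floor of 3 reads over a group, cover counting error only, since reads carry no molecular identifiers. Of 27470 symbols, 24243 were matched to GENCODE 44 (hg38), some through older symbols. Named were the switched-on genes, called neighbours within 100 kb, relatives by symbol and list genes; partners, and FLG, CNN1 and the genes near the limits, were chosen later. Replicate numbers are shared by the groups, but nothing in the labels ties same-numbered libraries together. Of the switched-on genes, 1 is counted in the totals but not reported here; some other genes are likewise counted only.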

Additional observations from a re-analysis of the deposited data

Results flagged for a closer look

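Reads that fell on no annotated gene, which enter none of the comparisons above, made up 37.1% of the reads listed with Dox on average and 33.3% without Dox, and each library with Dox (36.3%, 39.5% and 35.6%) was above each library without it (34.6%, 32.8% and 32.5%). Whether they bear on any of the 18 genes was not tested.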

How the results depend on the processing

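The number of switched-on genes, 18, follows its limits. It was 9 with at most 1 read in each library without Dox and 7 with none. It was 6 with at least 20 reads in each library with Dox and 9 on the deposited normalized values. These numbers were lower by construction of the limits or the scale. With limits scaled to library size it was 18, of which 16 were the same genes. Leaving out 1 library at a time gave 18 to 33, since fewer libraries then have to meet a limit. The number was largest without control replicate 3, at 33, with 31 without OE replicate 2 and 28 without OE replicate 1. All 18 remained each time by construction, which shows nothing of their stability. The number of called neighbours, 8, was 4 within 50 kb (1 higher and 3 lower of 17 tested, 5.88% and 17.6%) and 27 within 500 kb (17 higher and 10 lower of 88 tested, 19.3% and 11.4%), so the share that rose depends on the distance taken. Library totals alone moved the median over all genes from 0.02 to 0.14 (log2), the calls over all genes from 1449 higher and 1682 lower to 2191 and 1153, those of tissue marker genes from 15 and 19 to 20 and 16, and those of neighbours from 5 and 3 to 8 and 3. ABHD5 kept its call in 11 of 11 alternatives. Calls were lost under some alternative for 3 of the 8 called neighbours, 7 of the 21 called relatives, 1 of the 10 called partners and 13 of the 34 called tissue marker genes.

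Whether libraries with the same replicate number are paired was not settled. For replicates 1, 2 and 3, their deviations from the group means had an r across genes of -0.01, 0.23 and 0.09. Libraries with different numbers were not compared in this way. With the replicate block, 3662 genes were called in all, against 3131 without it. Among them were 9 neighbours, 38 tissue marker genes and 15 switched-on genes, and the ABHD5 log2 fold change was 0.89.

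At these depths, 10 reads in a library are few, so levels of the weakest genes are known only within wide counting error.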
